A study of Mus musculus with 24 samples.

Results

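Isg15, Usp18, Rsad2, Ifi44, Ifi27, Ifi47, Mx1, Mx2, Bst2 and Xaf1 are genes that cells switch on when interferons reach them. They were chosen by name, after an earlier reading of these same data, from the 55421 genes of the count and FPKM tables, and were read in every animal. All 10 were among the 13847 genes that had enough counts to be tested. Because that earlier reading had shown how these genes differed between the groups, their values, and the counts of them past a test's threshold, are given as a description, and none of their p-values is printed.

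RNA was measured in hepatocytes, the metabolic cells of the liver, isolated from 24 male C57BL/6J mice by a 2-step liver perfusion. Vehicle (eudragit, the empty coating material) or eRapa, rapamycin encapsulated in eudragit, was fed from 4 months of age. From 18 months, 8 vehicle animals were kept on normal diet (ND+veh) and the rest ate a high-fat diet, with 60% of its calories from fat, for 9 weeks. That diet contained vehicle (HFD+veh, n = 7) or eRapa at 42 ppm (HFD+eRapa, n = 9). Rapamycin was thus fed before the high-fat diet as well as with it, and no group received rapamycin on normal diet, so an effect of rapamycin alone cannot be told apart from one on the response to the diet. The question for these genes was how they differ with the diet and with rapamycin on that diet.

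Interferons bind receptors on the cell surface, and kinases such as Jak1 and Tyk2 pass the signal to transcription factors that enter the nucleus. For type I and type III interferons this is a complex containing Stat2 and Irf9, which binds a response element with a repeated GAAA core in the promoters of its targets. The products block viral entry, copying and release, and some of them, such as Usp18, feed back on the receptor. In liver, hepatocytes and the resident macrophages (Kupffer cells) both respond to interferon.

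The promoters show which of these genes carry an exact copy of that core next to their start. Promoter sequence from RefSeq on build GRCm38.p6 was at hand for 6 of the 10 genes (Isg15, Rsad2, Ifi44, Ifi47, Bst2 and Xaf1) and was searched on both strands for GAAA, any pair of bases (NN) and GAAA again, the core of the interferon-stimulated response element. The window ran from 250 bases before the transcript start to 50 bases after it. Matches were found in Isg15, Bst2 and Rsad2, and 3.43% of the 32817 promoter windows of the genome hold at least 1 match. The 250 bases before the start are printed for these 3 genes, as those with a match, and for Xaf1, as a gene whose window does not hold these exact letters. Capitals mark the bases of a match, and all are read 5′ to 3′ on the gene's own strand. They lie at chr4:156200819-156201068 (minus strand) for Isg15, chr8:71537473-71537722 (minus strand) for Bst2, chr12:26456453-26456702 (minus strand) for Rsad2 and chr11:72301379-72301628 (plus strand) for Xaf1.
Isg15: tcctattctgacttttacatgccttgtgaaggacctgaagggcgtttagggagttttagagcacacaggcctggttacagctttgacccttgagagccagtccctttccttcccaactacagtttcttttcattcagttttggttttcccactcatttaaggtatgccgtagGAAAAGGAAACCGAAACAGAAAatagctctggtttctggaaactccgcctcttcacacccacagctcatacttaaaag
Bst2: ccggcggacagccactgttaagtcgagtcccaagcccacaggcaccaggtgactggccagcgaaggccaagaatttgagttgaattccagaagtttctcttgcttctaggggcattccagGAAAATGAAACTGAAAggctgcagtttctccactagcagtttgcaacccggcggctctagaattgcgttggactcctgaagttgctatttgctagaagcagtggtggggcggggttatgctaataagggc
Rsad2: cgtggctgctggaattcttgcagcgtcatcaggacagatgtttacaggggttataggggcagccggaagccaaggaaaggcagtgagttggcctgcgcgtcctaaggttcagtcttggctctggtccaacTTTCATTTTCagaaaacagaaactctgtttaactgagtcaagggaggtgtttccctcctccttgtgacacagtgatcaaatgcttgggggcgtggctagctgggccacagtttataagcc
Xaf1: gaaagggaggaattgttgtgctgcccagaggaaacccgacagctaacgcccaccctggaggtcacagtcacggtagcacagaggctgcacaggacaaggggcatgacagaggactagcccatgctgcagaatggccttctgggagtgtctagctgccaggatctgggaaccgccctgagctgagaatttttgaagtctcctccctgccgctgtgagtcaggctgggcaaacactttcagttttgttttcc

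In Isg15 the core occurs 3 times in overlapping copies between 78 and 57 bases before the start. Bst2 holds 2 overlapping copies, from 130 to 115 bases before the start. In Rsad2 there is 1 copy on the opposite strand, 120 to 111 bases before the start. The Bst2 window also holds a match to TTCNNNGAA, the gamma-activated site bound in the response to type II interferon, 136 to 128 bases before the start and overlapping the first copy of the core. That second motif is in 8.29% of all windows. A match is a stretch of letters, and binding was not measured. Only exact copies were searched for, so a window without a match may still hold an inexact copy of the element.

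The libraries held 17.7 to 25.9 M counts, M being 1000000. Alb, which encodes albumin, stood at 31430 to 127993 counts per M (CPM, scaled for library composition) across the 24 libraries. The summed level of 8 hepatocyte markers, Alb among them, was 50054 to 155983 CPM, so hepatocyte RNA was abundant in every library. The purity of the cells was not tested. All libraries have the same batch label. ND+veh replicate 4 stood apart from the other 7 animals of its group in most of the 10 genes, and the results for these genes that rest on it are given with and without it. Its labels place it in ND+veh, and whether that label is right was not tested. It had 24.6 M counts, the largest library composition factor of the series (1.30) and the lowest hepatocyte marker sum of its group (55197 CPM).

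Within a library the 10 genes covered a wide range of levels. On the FPKM scale, which allows for gene length, Ifi27 had the highest median level over the 24 libraries (322), followed by Bst2 (275), Isg15 (21.4), Ifi47 (13.9), Xaf1 (10.6), Usp18 (9.46), Ifi44 (3.70), Rsad2 (3.52), Mx2 (3.14) and Mx1 (0.575). Ifi27 and Bst2 were abundant in every group, with median levels of 508 and 418 FPKM in ND+veh, 505 and 372 FPKM in HFD+veh and 288 and 195 FPKM in HFD+eRapa. The other 8 genes were low on normal diet, where their median levels lay between 0.275 FPKM for Mx1 and 13.6 FPKM for Isg15. In HFD+veh the same 8 genes had median levels between 6.20 FPKM for Mx1 and 169 FPKM for Isg15. From Isg15 to Mx1, neighbours in this order had overlapping ranges in every group, and in HFD+eRapa Ifi27 (238 to 335 FPKM) lay above Bst2 (110 to 219 FPKM) in all animals.

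**Figure D1:**
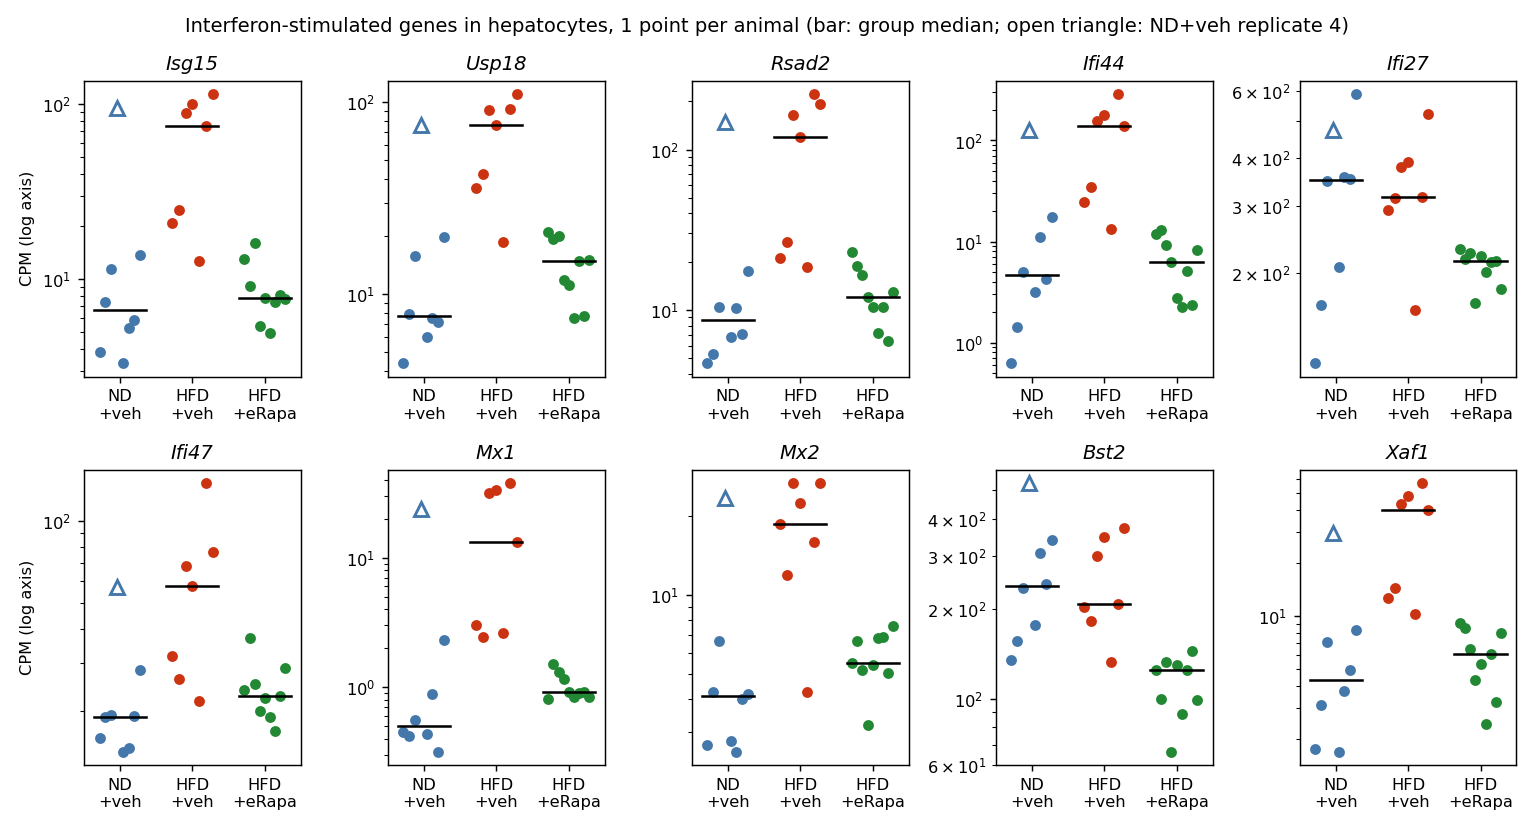
Levels of the 10 genes in every animal, in CPM on a log axis, by group. Points are animals, bars are group medians, and the open triangle is ND+veh replicate 4. For 8 of the genes most HFD+veh animals lie above the ND+veh animals other than the triangle, the HFD+eRapa animals lie low, and Ifi27 and Bst2 show no such difference between the vehicle groups.

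Isg15 encodes a small ubiquitin-like protein that is attached to other proteins, and Usp18 encodes the protease that removes it and also restrains signalling at the type I interferon receptor. Isg15 (ENSMUSG00000035692.7, chromosome 4, 156199424 to 156200818, minus strand) ran from 3.31 through a median of 6.63 to 95.4 CPM in ND+veh, from 12.7 through 74.5 to 114 CPM in HFD+veh and from 4.95 through 7.79 to 16.1 CPM in HFD+eRapa. The highest ND+veh animal was replicate 4, with the next at 13.8 CPM, and 6 of the 7 HFD+veh animals were above all ND+veh animals other than that one. The fitted log2 fold change of Isg15 was 1.75 ± 0.63 (SE) in HFD+veh against ND+veh, or 3.04 ± 0.46 without ND+veh replicate 4, and -2.81 ± 0.63 in HFD+eRapa against HFD+veh. Usp18 (ENSMUSG00000030107.10, chromosome 6, 121245906 to 121270917, plus strand) ran from 4.37 through 7.70 to 76.1 CPM in ND+veh, from 18.6 through 76.1 to 110 CPM in HFD+veh and from 7.49 through 15.0 to 21.0 CPM in HFD+eRapa. The HFD+veh median was 11.2 times the ND+veh median for Isg15 and 9.89 times for Usp18, and the HFD+eRapa animals lay within the ND+veh range for both. That range was set by replicate 4, and the highest HFD+eRapa animals were above the other ND+veh animals, at 16.1 against at most 13.8 CPM for Isg15 and at 21.0 against at most 19.8 CPM for Usp18. The log2 fold change of Usp18 was 1.87 ± 0.52 (SE) with the diet, or 2.73 ± 0.39 without that animal, and -2.22 ± 0.50 with eRapa on the diet.

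Rsad2 encodes viperin, an enzyme that makes a nucleotide which stops viral RNA synthesis, and Ifi44 encodes a cytoplasmic protein of the antiviral response. Rsad2 (ENSMUSG00000020641.16, chromosome 12, 26442746 to 26456452, minus strand) ran from 4.65 through 8.70 to 148 CPM in ND+veh, from 18.6 through 121 to 221 CPM in HFD+veh and from 6.37 through 12.0 to 22.9 CPM in HFD+eRapa. All 7 HFD+veh animals lay above every ND+veh animal other than replicate 4. Ifi44 (ENSMUSG00000028037.13, chromosome 3, 151730922 to 151749960, minus strand) had the widest spread, from 0.624 through 4.65 to 126 CPM in ND+veh, from 13.2 through 139 to 285 CPM in HFD+veh and from 2.25 through 6.25 to 13.0 CPM in HFD+eRapa. Its HFD+veh and HFD+eRapa animals did not overlap, and the HFD+veh median was 22.3 times the HFD+eRapa median. The log2 fold changes with the diet were 2.05 ± 0.71 (SE) for Rsad2 and 2.48 ± 0.86 for Ifi44, and those of HFD+eRapa against HFD+veh were -3.06 ± 0.71 and -4.12 ± 0.88. Without ND+veh replicate 4 the diet values were 3.57 ± 0.54 for Rsad2 and 4.22 ± 0.74 for Ifi44.

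Mx1 and Mx2 encode dynamin-like GTPases that trap viral components in the nucleus and the cytoplasm. Both lie side by side on chromosome 16, Mx1 (ENSMUSG00000000386.16) at 97447035 to 97462907 on the minus strand and Mx2 (ENSMUSG00000023341.15) at 97535308 to 97560900 on the plus strand. The C57BL/6 strain carries defective copies, and the annotation lists Mx2 as a polymorphic pseudogene. Mx1 ran from 0.317 through 0.506 to 23.6 CPM in ND+veh, from 2.42 through 13.2 to 37.6 CPM in HFD+veh and from 0.814 through 0.923 to 1.51 CPM in HFD+eRapa. Its levels in HFD+eRapa rest on 15 to 27 counts per library, and those in ND+veh on as few as 6. All HFD+eRapa animals lay below all HFD+veh animals, and in ND+veh only replicate 4 reached the HFD+veh range, the next animal being at 2.32 CPM. Mx2 ran from 2.51 through 4.09 to 23.4 CPM in ND+veh, from 4.26 through 18.5 to 26.6 CPM in HFD+veh and from 3.17 through 5.49 to 7.59 CPM in HFD+eRapa. The log2 fold changes with the diet were 2.26 ± 0.84 (SE) for Mx1 and 1.50 ± 0.42 for Mx2, and those of HFD+eRapa against HFD+veh were -4.10 ± 0.88 and -1.63 ± 0.41. Without ND+veh replicate 4 the diet values were 4.45 ± 0.63 for Mx1 and 2.17 ± 0.30 for Mx2. Ifi44 had the highest log2 fold change of the 10 genes with the diet when all animals were fitted, and Mx1 had it without that animal. Stretches of 50 bases shared between both genes make up 4.77% of the Mx1 transcript and 6.55% of the Mx2 transcript, so reads from those stretches are of uncertain origin.

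Ifi47 encodes an immunity-related GTPase that belongs mainly to the response to type II interferon, and Xaf1 encodes a zinc finger protein that opposes an inhibitor of apoptosis. Ifi47 (ENSMUSG00000078920.3, chromosome 11, 49076587 to 49096974, plus strand) ran from 14.2 through 19.2 to 57.1 CPM in ND+veh, from 21.8 through 57.6 to 137 CPM in HFD+veh and from 16.9 through 22.8 to 37.3 CPM in HFD+eRapa. Xaf1 (ENSMUSG00000040483.15, chromosome 11, 72301629 to 72313733, plus strand) ran from 1.68 through 4.32 to 29.6 CPM in ND+veh, from 10.2 through 40.0 to 56.8 CPM in HFD+veh and from 2.42 through 6.06 to 9.09 CPM in HFD+eRapa. Xaf1 was the third gene whose HFD+veh and HFD+eRapa animals did not overlap, while 3 HFD+eRapa animals lay below all HFD+veh animals for Ifi47. The log2 fold changes with the diet were 1.35 ± 0.34 (SE) for Ifi47 and 2.08 ± 0.53 for Xaf1 (1.64 ± 0.31 and 2.83 ± 0.44 without ND+veh replicate 4), and those of HFD+eRapa against HFD+veh were -1.32 ± 0.33 and -2.44 ± 0.51. Ifi47 shares 111 exon bases with Olfr56 on the same strand and 106 with a pseudogene on the other, and Usp18 shares 124 with an antisense transcript, so reads in those bases are of uncertain origin.

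Ifi27 and Bst2 behaved differently from the other 8. Ifi27 encodes a small hydrophobic protein of mitochondrial and nuclear membranes, and Bst2 encodes tetherin, which holds budding virus particles on the cell surface. Bst2 is also used as a marker of plasmacytoid dendritic cells. Ifi27 (ENSMUSG00000064215.13, chromosome 12, 103434211 to 103440239, plus strand) ran from 116 through 351 to 588 CPM in ND+veh, from 159 through 317 to 523 CPM in HFD+veh and from 167 through 215 to 230 CPM in HFD+eRapa. Bst2 (ENSMUSG00000046718.8, chromosome 8, 71534255 to 71537456, minus strand) ran from 135 through 239 to 528 CPM in ND+veh, from 133 through 207 to 375 CPM in HFD+veh and from 66.2 through 124 to 145 CPM in HFD+eRapa. The vehicle groups overlapped throughout in both genes. The log2 fold change with the diet was 0.06 ± 0.26 (SE) for Ifi27, with a 95% interval of -0.47 to 0.59, and -0.09 ± 0.26 for Bst2, with an interval of -0.62 to 0.45. Without ND+veh replicate 4 these were 0.12 ± 0.26 and 0.10 ± 0.23. Against HFD+veh, the HFD+eRapa group was at -0.71 ± 0.25 for Ifi27 and at -1.15 ± 0.25 for Bst2.

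Counted by the edgeR quasi-likelihood fit over all genes (adjusted p under 0.05, termed called), 7 of the 10 genes were called higher and none lower in HFD+veh against ND+veh. Over all 13847 genes, 16% were called higher, and since the genes were picked on this pattern nothing is read from their share. Mx1, Ifi27 and Bst2 were not called. The log2 fold changes of the 10 genes had a median of 1.81, from -0.09 to 2.48, beside a median of 0.05 over all genes. None of them separated the vehicle groups fully, as 1.21% of all genes did with the higher levels in HFD+veh. The count of 7 moved with single libraries. It was 4 without any one of ND+veh replicates 1, 2, 3, 5, 6 or 7 or of HFD+veh replicates 3, 4 or 6, with Isg15, Rsad2 and Ifi44 no longer called, and 8, with Mx1, without ND+veh replicate 4 or HFD+veh replicate 1, 2 or 5. The median log2 fold change was 2.78 without ND+veh replicate 4, and stayed between 1.62 and 2.78 whichever library was left out.

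**Figure D2:**
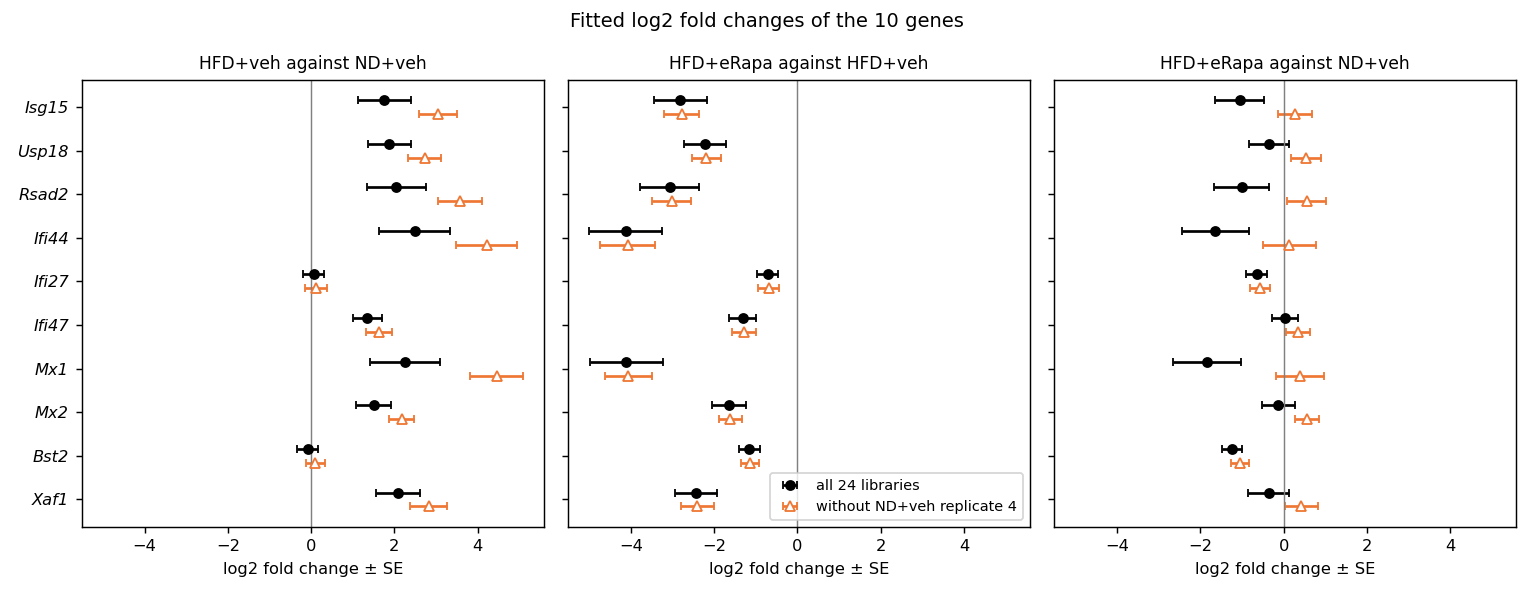
Fitted log2 fold changes of the 10 genes with their standard errors in the 3 comparisons, from all 24 libraries (filled circles) and without ND+veh replicate 4 (open triangles). Leaving that animal out raises the median of HFD+veh against ND+veh from 1.81 to 2.78, leaves HFD+eRapa against HFD+veh in place and turns the median of HFD+eRapa against ND+veh from -0.83 to 0.37.

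In HFD+eRapa against HFD+veh, all 10 genes were called lower, where 21.1% of all genes were. The median log2 fold change was -2.33, from -4.12 for Ifi44 to -0.71 for Ifi27, beside -0.04 over all genes. Ifi44, Mx1 and Xaf1 had no overlap between the groups, which held for 1.29% of all genes in that direction. Ifi27 was the gene nearest the threshold and was not called without HFD+veh replicate 3, 4, 6 or 7 or without HFD+eRapa replicate 4, 6 or 9. The other 9 genes were called lower whichever library was left out, and the median log2 fold change stayed between -2.49 and -2.14.

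HFD+eRapa was also set beside ND+veh. This comparison shares its animals with the other comparisons, and its values are given next to theirs. Bst2 was called lower with a log2 fold change of -1.24 ± 0.24 (SE), 8 of the 9 HFD+eRapa animals lying below all ND+veh animals, and the other 9 genes were not called. Over all genes, 6.54% were called lower and 6.93% higher. For Ifi27 the log2 fold change was -0.65 ± 0.24 and the 95% interval was -1.15 to -0.15. The fitted log2 fold change was below 0 for 9 of the 10 genes, with a median of -0.83, although for 8 genes the HFD+eRapa group had the higher median in CPM, such as 15.0 against 7.70 CPM for Usp18. The fit compares group means, and for Isg15 the ND+veh mean was 18.3 CPM beside a median of 6.63 CPM. Without ND+veh replicate 4, 8 of the 10 log2 fold changes were above 0 and the median was 0.37, while Bst2 remained called lower (-1.04 ± 0.22) and Ifi27 stood at -0.57 ± 0.25.

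The same animals were high for most of the genes. Ranked from 1 (highest) to 24 over all libraries, the mean rank over the 10 genes was 2.5 for HFD+veh replicate 7, 3.2 for replicate 4, 3.4 for replicate 3, 3.6 for replicate 6 and 3.8 for ND+veh replicate 4. HFD+veh replicates 1 and 2 had mean ranks of 7.5 and 7.6, ND+veh replicate 8 had 9.1, and HFD+veh replicate 5 had 13, behind 3 of the 9 HFD+eRapa animals. The HFD+veh group was therefore not uniform, and the ratio of its highest to its lowest animal was 21.6 for Ifi44, 15.5 for Mx1, 11.9 for Rsad2 and 2.83 for Bst2. HFD+eRapa animals stood closer together than HFD+veh animals in each of the 10 genes. Their ratio ran from 1.38 for Ifi27 to 5.76 for Ifi44, with 3.59 for Rsad2, 2.19 for Bst2 and 1.85 for Mx1, which had only 15 to 27 counts there. ND+veh replicate 4 exceeded the next ND+veh animal 10.2-fold for Mx1, 8.46-fold for Rsad2, 7.10-fold for Ifi44 and 6.92-fold for Isg15, and it had the highest Bst2 level of all 24 animals. For Ifi27 ND+veh replicate 8 was higher than it, at 588 against 475 CPM.

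**Figure D3:**
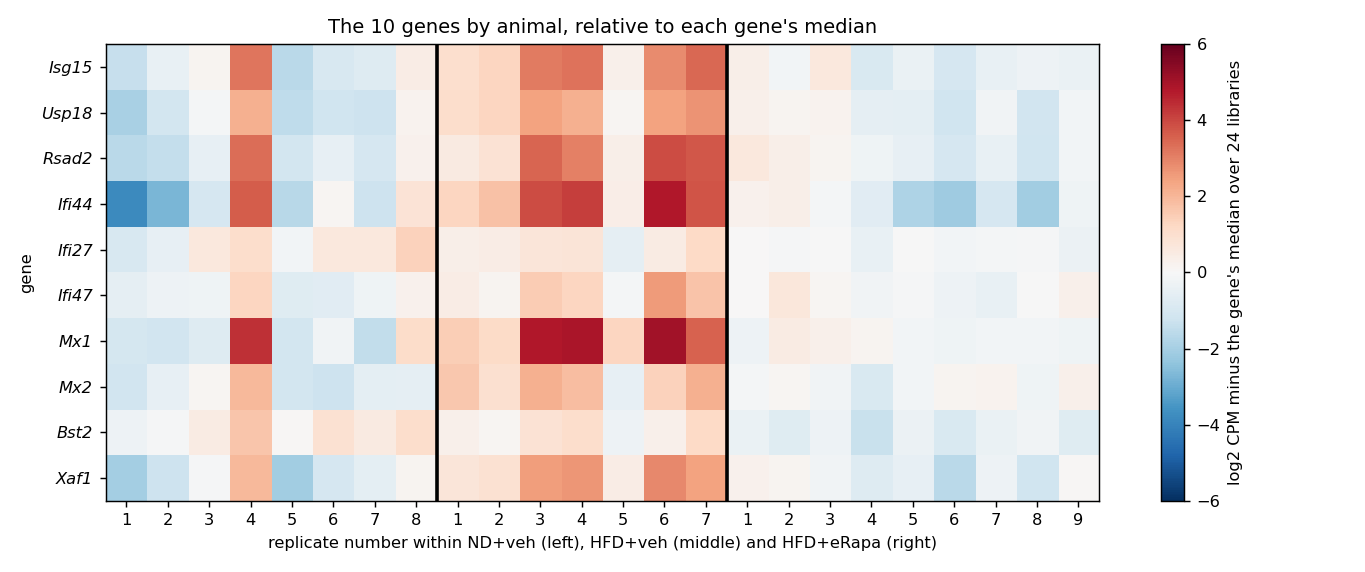
Log2 CPM of each gene minus that gene's median over the 24 libraries, with 1 column per animal and groups separated by black lines. HFD+veh replicates 3, 4, 6 and 7 and ND+veh replicate 4 are high in nearly all genes, HFD+veh replicate 5 is not, and HFD+eRapa animals are close to the median or below it.

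Pearson correlations of log2 CPM between the genes describe this. Over the 45 pairs of genes the median r was 0.90 among the 8 ND+veh animals, 0.72 among 7 of them without replicate 4, 0.89 among the 7 HFD+veh animals and 0.33 among the 9 HFD+eRapa animals, where it ran from -0.26 to 0.95. The points are whole animals and share library, depth and composition. Ifi27 and Bst2 were most like each other (r = 0.85 over 24 libraries), while each of the other 8 genes had its closest member among those 8. Of 11078 other genes with a mean log2 CPM above 0, the 5 that followed the mean z score of the 10 genes most closely over the 24 libraries were Ifit3b (r = 0.97), Tgtp1, H2-T22, Zbp1 and Ifit3. With group means removed they were Zbp1, Ifit1, Ifit3b, Tgtp1 and Herc6, with r between 0.96 and 0.97. Dhx58, H2-T22 and Usp18 were most like Isg15, and Gbp3, Oas1a and Herc6 were most like Ifi44.

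Beside the 10 genes, 106 other genes of the interferon pathway were listed, again with earlier results known, and 93 of them had enough counts to be tested. In HFD+veh against ND+veh 75 rose and none fell, against 16% and 9.86% of all genes, and their median log2 fold change was 1.48. In HFD+eRapa against HFD+veh 81 fell and none rose, against 21.1% and 10.9% of all genes, with a median of -1.81. In HFD+eRapa against ND+veh only Irf1 (log2 fold change -0.41 ± 0.14 SE, just past the threshold) and Ifitm2 (-0.70 ± 0.12) passed, both lower. Ifitm2 was called whichever of the 24 libraries was left out, and Irf1 in 8 of those 24 fits. Irf1 encodes a transcription factor of the interferon response and Ifitm2 a membrane protein that blocks viral entry. Between the vehicle groups Ifitm2 stood at 0.02 ± 0.13.

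**Figure D4:**
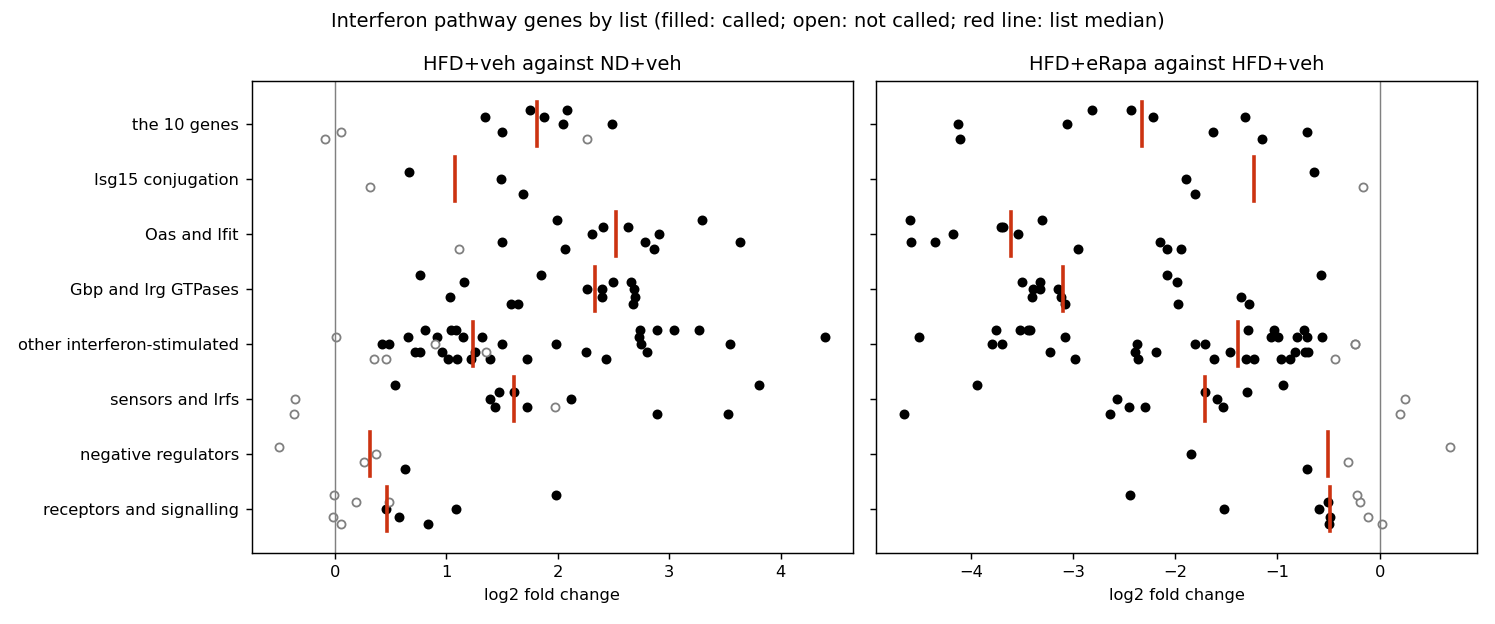
Log2 fold changes of the tested genes of each interferon pathway list in HFD+veh against ND+veh (left) and HFD+eRapa against HFD+veh (right). Each point is a gene, filled where it was called, and red lines are list medians. The Oas and Ifit list has a median of 2.52 on the left and -3.61 on the right, and the lists of negative regulators (0.32 and -0.51) and of receptors and signalling genes (0.47 and -0.49) have the medians nearest 0.

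No interferon gene came near a level that could be tested. Among 10 of them, including Ifnb1 and Ifng, the summed level was at most 0.717 CPM in any library, Ifnb1 reached 4 counts in HFD+veh and had none in the other groups, and Ifng reached 17 counts. Of the receptors, Ifnar1 and Ifnar2, the chains of the type I receptor, stood at 30.3 to 47.4 CPM and 38.6 to 68.3 CPM over all libraries. Their log2 fold changes with the diet were 0.06 ± 0.09 (SE) and -0.02 ± 0.11. Ifngr1, a chain of the type II receptor, rose with the diet (1.09 ± 0.35) and fell with eRapa on it (-1.53 ± 0.34), and Ifngr2 stood at 0.49 ± 0.18 without passing the test and fell with eRapa (-0.50 ± 0.18). Jak1 rose by 0.58 ± 0.14 and fell by 0.49 ± 0.13 on the log2 scale, and Tyk2 stood at 0.00 ± 0.13 and -0.22 ± 0.13. Of the complex that binds the response element, Irf9 rose (0.83 ± 0.15) and Stat2 did not pass the test (0.19 ± 0.15). In all, 5 of 10 tested receptor and signalling genes rose with the diet and 6 of 10 fell in HFD+eRapa. Of 4 negative regulators, Pias1 rose with the diet, and it and Socs1 fell with eRapa.

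Most of the machinery that attaches Isg15 to proteins moved in the same directions. Uba7, the activating enzyme, rose by 1.50 ± 0.37 (SE) on the log2 scale in HFD+veh against ND+veh and stood at -1.89 ± 0.36 in HFD+eRapa against HFD+veh. Ube2l6, the conjugating enzyme, stood at 0.67 ± 0.17 and -0.64 ± 0.16, and Herc6, a ligase for Isg15 in mouse, at 1.69 ± 0.42 and -1.81 ± 0.40, all of them called. Trim25, another ligase, did not pass the test in either comparison (0.31 ± 0.13 and -0.16 ± 0.13).

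Among genes for effectors, the Oas and Ifit genes, which sense or sequester viral RNA, rose with the diet in 11 of 12 tested and fell with eRapa in 12 of 12. Oasl2 stood at 2.78 ± 0.87 and -4.59 ± 0.91, and Ifit1 at 2.86 ± 0.68 and -2.95 ± 0.66. All 14 Gbp and Irg GTPase genes rose with the diet and fell with eRapa on it, and Ifi47 belongs with the Irg genes among them. Of 13 sensors and interferon regulatory factors, 10 rose and 11 fell. Irf7, which amplifies interferon responses, rose by 1.73 ± 0.54 and fell by 2.30 ± 0.53 on the log2 scale. Of the 36 other interferon-stimulated genes tested, 31 rose with the diet and 33 fell with eRapa on it. Close relatives of the 10 genes differed. Ifi44l had at most 3 counts in any library, Ifi27l2a rose with the diet (3.04 ± 0.98), and Ifi27l2b, like Ifi27, did not pass that test (0.35 ± 0.47) and fell with eRapa (-1.23 ± 0.46). Cmpk2, which lies beside Rsad2 in the genome, stood at 1.36 ± 0.52 with the diet, short of the threshold, and fell with eRapa (-2.40 ± 0.51).

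Markers of immune cells moved with the 10 genes. The summed level of 29 macrophage, lymphocyte and neutrophil markers ran from 53.3 to 1584 CPM in ND+veh, from 200 to 5986 CPM in HFD+veh and from 21.3 to 1241 CPM in HFD+eRapa. Macrophage markers made up most of the highest sum, with 5886 CPM in HFD+veh replicate 6. Of the 16 markers that could be tested, 12 were macrophage, 3 neutrophil and 1 lymphocyte genes. With the diet 6 of the 16 rose, among them the macrophage genes Adgre1 and Cd68, and 12 fell in HFD+eRapa against HFD+veh. The shares over all genes were 16% and 21.1%. The 16 markers had median log2 fold changes of 2.18 and -2.69, beside 1.81 and -2.33 for the 10 genes. With the diet the 12 macrophage markers ran from 1.77 to 3.11, though most of them were not called. None of the 12 macrophage markers was at 0 throughout a group, and of the 7 neutrophil markers Ly6g had no counts in ND+veh and HFD+eRapa. Endothelial and stellate cell markers were lower too in HFD+eRapa against HFD+veh, with 7 of 7 and 6 of 6 called. Of the 8 hepatocyte markers, 2 were called lower with the diet and 3 higher in HFD+eRapa against HFD+veh, with list medians of -0.18 and 0.11. The 3 cholangiocyte (bile duct) markers that could be tested were called higher with the diet, with a median log2 fold change of 2.37, and 1 of them was called lower in HFD+eRapa against HFD+veh. The summed level of the 5 listed ran from 4.92 through a median of 5.74 to 20.3 CPM in ND+veh, where replicate 4 was the highest, from 13.0 through 106 to 362 CPM in HFD+veh and had a median of 20.8 and a maximum of 59.1 CPM in HFD+eRapa. In bulk RNA, fewer cells of a type and less RNA per cell cannot be told apart. The edgeR fit was repeated with the immune marker score of each library as a covariate. In that fit none of the 10 genes was called in HFD+veh against ND+veh or in HFD+eRapa against HFD+veh. The median log2 fold changes were then 1.00 and -1.51, in the same directions as without it, and of the 93 other pathway genes 23 rose in the first comparison and 18 fell in the second. Over all genes in that fit 4.23% were called higher in the first and 3.67% lower in the second. Bst2 was still called lower in HFD+eRapa against ND+veh, as were 10.2% of all genes.

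Animal by animal, the genes and the markers ran together in some animals and apart in others. HFD+veh replicates 3, 4 and 6 had mean ranks of 3.4, 3.2 and 3.6 for the 10 genes and marker sums of 3820, 3002 and 5986 CPM. HFD+veh replicate 7 had the highest mean rank of the 10 genes at a marker sum of 1097 CPM, and ND+veh replicate 4 was nearly as high at 494 CPM. HFD+veh replicate 5 combined a marker sum of 3322 CPM with the lowest levels of its group for 9 of the 10 genes. HFD+veh replicates 1 and 2 had marker sums of 200 and 202 CPM and lay above every ND+veh animal other than replicate 4 for Isg15, Usp18, Rsad2, Ifi44, Mx1, Mx2 and Xaf1. ND+veh replicate 8, with 1584 CPM of markers, was below them for these genes. It was above both for Ifi27 (588 against 293 and 314 CPM) and Bst2 (341 against 202 and 182 CPM). For Ifi47 it lay between them, at 28.3 against 32.0 and 26.2 CPM. Over the 24 libraries, r of log2 CPM with the marker score ran from 0.35 for Mx2 to 0.76 for Ifi44, and with group means removed from -0.03 for Mx2 to 0.62 for Ifi44. Markers of plasmacytoid dendritic cells, strong producers of type I interferon, summed to 15.0 CPM in HFD+veh replicate 6 and to at most 3.91 CPM in every other library, and none of the 5 could be tested. The part of immune cell RNA in the levels of the 10 genes was not tested beyond these values.

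**Figure D5:**
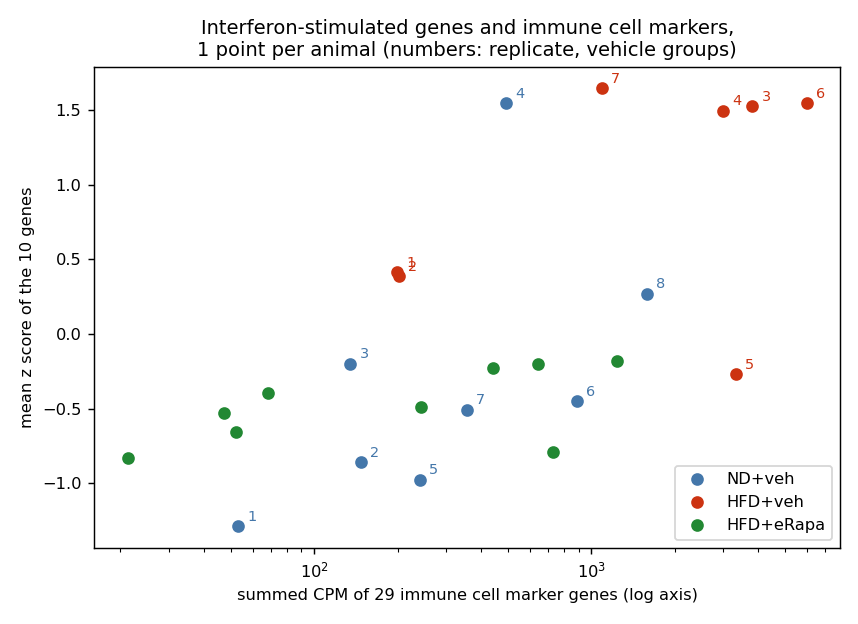
Mean z score of the 10 genes against the summed CPM of 29 immune cell markers on a log axis, with 1 point per animal coloured by group and replicate numbers beside the vehicle animals. HFD+veh replicates 3, 4 and 6 are high at 3820, 3002 and 5986 CPM. HFD+veh replicate 7 and ND+veh replicate 4 are high at 1097 and 494 CPM, and HFD+veh replicate 5 is low at 3322 CPM.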

How the data were processed

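Libraries were made from polyA RNA of isolated hepatocytes, 1 per animal. The authors aligned reads with STAR to mm10 (Gencode M23) and filtered them with SAMtools 1.1.0. The deposited raw counts per gene were made by the authors with HTSeq 0.11.2 (strand setting not given in the sources used here), and the deposited FPKM values, per kilobase and M fragments (M being 1000000), with Cufflinks. Positions are from Gencode M21 on GRCm38, the assembly of mm10. For Isg15 and Mx1 that release holds an earlier version of the identifier (ENSMUSG00000035692.6 and ENSMUSG00000000386.15) than the deposited counts, and the positions printed are those of the earlier version.

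Counts were fitted with edgeR 4.0.16 (R 4.3.3; filterByExpr, TMM, robust quasi-likelihood) in a single model of 3 groups and 24 libraries, and p-values were adjusted by Benjamini-Hochberg over 13847 genes. A gene with an adjusted p under 0.05 is termed called. Intervals are 95%. CPM use TMM-scaled totals, and log2 CPM have a prior count of 2. FPKM served to compare levels between genes. Tested on simulated counts, for HFD+veh against ND+veh the fit recovered 130 of 200 genes with a simulated log2 change of 1, with 3.70% false calls. The lowest chi-square per degree of freedom between libraries of a group was 11.3, so each library was counted as 1 replicate.

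The members and gene lists were chosen with earlier results of these data known. Named genes are the 10 members, key pathway genes and the genes most like the members; Irf1, Ifitm2, Pias1, Socs1, Adgre1, Cd68 and Ly6g were named after their values were seen. Alternatives were DESeq2 1.42.0, its size factors in edgeR, no filter, at least 10 counts in every library, only the groups compared, the replicate number as a block, an immune marker score (mean z of 16 testable markers of 29) as covariate, limma 3.58.1 on log2(FPKM + 1) and log2(FPKM + 0.1), and each library left out.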

Additional observations from a re-analysis of the deposited data

Results flagged for a closer look

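Values far from the rest of their group were looked for in 36 sets, the 10 genes, total counts and the immune marker score in each of the 3 groups, with Dixon's test at its 95% critical value. About 1 in 20 sets, or 1.8, would be marked by chance, and 6 were. The 10 genes varied together across animals, so the sets are not independent and nothing is read from that difference. Of the 6, 4 were the single animal ND+veh replicate 4.

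In ND+veh, replicate 4 stood apart for Isg15 at 6.58 log2 CPM (the others 1.77 to 3.80), for Rsad2 at 7.21 (2.25 to 4.13), for Mx1 at 4.57 (-1.28 to 1.27) and for Mx2 at 4.55 (1.38 to 2.76). In HFD+eRapa, replicate 4 was the lowest for Mx2, at 1.71 log2 CPM with the others at 2.35 to 2.94. In HFD+veh, replicate 3 had the smallest library, with 19.8 M counts against 21.3 to 22.0 M.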

How the results depend on the processing

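Every member tested kept a log2 fold change below 0 in HFD+eRapa against HFD+veh under all alternatives, and 9 or 10 were called (9 without any filter, with either FPKM fit, with the replicate block and with at least 10 counts in every library, where Mx1 was not tested), except with the immune marker score as covariate, where the count was 0. Over all genes in that comparison the number called lower ran from 508 with the covariate to 3752 with DESeq2, beside 2925 in the main fit. In HFD+veh against ND+veh the count of members was 0 with that covariate, 4 with no expression filter and 4 with only the 2 groups compared. Over all genes 586, 1899 and 1433 were called higher in these fits, beside 2218 in the main fit. With the covariate the other pathway genes called were 23 and 18 in these comparisons. In HFD+eRapa against ND+veh, 2 other pathway genes were called, and the count was 1 with DESeq2 size factors, no filter, at least 10 counts in every library or either FPKM fit, 4 with only the 2 groups compared and 5 with DESeq2. The cause was not tested. No called member changed sign under any alternative.

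Leaving out each library in turn gave 4 to 8 members called in HFD+veh against ND+veh, 9 to 10 in HFD+eRapa against HFD+veh and 1 to 2 in HFD+eRapa against ND+veh (2, adding Ifi27, without ND+veh replicate 1 or 2). Over all genes, 988 to 2755 were called higher in the first comparison. In the second 2037 to 3250 were called lower, and in the third 712 to 1173. Other pathway genes called were 55 to 81, 75 to 84 and 1 to 3 (1 without ND+veh replicate 3, 7 or 8, HFD+veh replicate 7 or HFD+eRapa replicate 2, 5, 6, 8 or 9). The median log2 fold change of the members was 1.62 to 2.78, -2.49 to -2.14 and -0.98 to 0.37, the last above 0 without ND+veh replicate 4.

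Replicate numbers are shared between groups but belong to different animals. Deviations of same-numbered libraries correlated by a mean r of 0.32, -0.24 and -0.20, and 6 of 14, 1 of 14 and 1 of 16 libraries correlated best with their own number. In HFD+veh against ND+veh 5 of 7 same-numbered pairs had an r over 0.1, so these 2 groups shared some structure by number. What that structure comes from was not tested. With the replicate block 8, 9 and 1 members and 70, 69 and 2 other pathway genes were called, and the median of HFD+eRapa against ND+veh was 0.09. Over all genes in that fit 1436 were called higher in the first comparison, 1459 lower in the second and 663 lower in the third.

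Mx1 rested on as few as 6 counts in a library, and the interferon genes were too low to be tested.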
